A study of Mus musculus with 17 samples.

Results

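The small nucleolar RNAs described here were the rows of the deposited gene count table whose symbol began with Snord or Snora and a number, and which held 10 or more counts in at least 2 of the 17 libraries. Of 55421 rows in the table, 141 had such a name and 58 reached this floor. Box C/D RNAs made up 34 of the 58 and box H/ACA RNAs 24. The other 83 rows stayed below the floor, and 9 of them were at 0 in every library. The symbol Snora43 stands for a pair of rows in the table, and only the row ENSMUSG00000097052 reached the floor, so Snora43 means that row throughout.

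Each library came from passage 1 lung fibroblasts, labelled primary fibroblasts, of 1 mouse, after ribosomal RNA removal and strand-specific paired-end sequencing of total RNA. All mice carried Ephb4f/f; Col1a2-CreERT2 on a C57BL/6J background, so controls and knockouts shared both alleles and Cre was driven by the promoter of a collagen gene that fibroblasts express. At 4 weeks of age, Ephb4 CKO mice received 1 mg of 4-hydroxytamoxifen a day for 5 days and Ephb4 control mice received the corn oil vehicle. The deletion and exposure to 4-hydroxytamoxifen thus coincide, and their effects cannot be told apart in these groups. At 6 weeks the mice received bleomycin (1.2 U/kg), which injures the lung and induces fibrosis, or PBS, and cells were harvested on day 14. The groups were Ephb4 control PBS (n = 4 mice), Ephb4 control bleomycin (n = 4), Ephb4 CKO PBS (n = 5) and Ephb4 CKO bleomycin (n = 4).

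Small nucleolar RNAs are short noncoding RNAs that act in ribonucleoprotein particles in the nucleolus. Box C/D RNAs carry a C box near the 5′ end and a D box near the 3′ end, and most of them pair with ribosomal RNA to place 2′-O-methyl groups. Box H/ACA RNAs fold into hairpins separated by the H box, end in an ACA motif, and most of them place pseudouridines. A few of either class are needed instead for the cleavage of the ribosomal RNA precursor. Most are cut out of the introns of a host gene, often a ribosomal protein gene or a noncoding host gene (Snhg), while Snord118 and Snord13 have promoters of their own.

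The sequences below are shown because the results turn on these RNAs. They were taken from the GENCODE M21 transcripts (GRCm38) and are written 5′ to 3′, and capitals mark matches to the boxes. The motifs were searched on the RNA strand only. They were TGATGA starting in the first 25 bases for the C box and the last CTGA in the final 20 bases for D. For H the match was the ANANNA nearest the middle, accepted only in a short window around the middle. For ACA it was the last ACA in the final 9 bases. Snora73a (chr4:132352775-132352979, reverse strand) and Snora73b (chr4:132352322-132352526, reverse strand) are the U17 RNAs, which act in cleavage of the small-subunit rRNA precursor. They were identical at 198 of 205 aligned positions (96.6%), so reads may have been divided between them by the counting. Snord17 (chr2:144265979-144266216, reverse strand) is the longest box C/D RNA among the 58.
Snora73a: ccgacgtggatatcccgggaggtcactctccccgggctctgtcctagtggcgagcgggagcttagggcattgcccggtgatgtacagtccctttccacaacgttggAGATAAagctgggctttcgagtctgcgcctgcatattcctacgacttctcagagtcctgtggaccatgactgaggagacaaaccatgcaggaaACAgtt
Snora73b: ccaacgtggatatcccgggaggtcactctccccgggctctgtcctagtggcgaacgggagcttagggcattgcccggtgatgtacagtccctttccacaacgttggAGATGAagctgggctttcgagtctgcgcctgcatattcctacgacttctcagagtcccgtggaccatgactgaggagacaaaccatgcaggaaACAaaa
Snord17: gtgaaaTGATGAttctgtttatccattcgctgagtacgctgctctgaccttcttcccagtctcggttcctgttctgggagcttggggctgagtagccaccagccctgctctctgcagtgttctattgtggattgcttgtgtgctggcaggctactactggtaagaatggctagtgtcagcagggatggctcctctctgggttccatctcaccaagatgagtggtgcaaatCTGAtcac

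Snord118 (chr11:69073427-69073561, forward strand) is the U8 RNA, which is needed for maturation of the large-subunit rRNA and has no annotated host gene. Snord123 (chr15:32241853-32241923, reverse strand) lies in an intron of Snhg18. Snord15a (chr7:99482785-99482932, reverse strand) and Snord15b (chr7:99479563-99479707, reverse strand) both belong to the ribosomal protein gene Rps3, the first in an intron and the second overlapping an annotated exon, and shared 107 identical positions over 162 alignment columns (66.0%).
Snord118: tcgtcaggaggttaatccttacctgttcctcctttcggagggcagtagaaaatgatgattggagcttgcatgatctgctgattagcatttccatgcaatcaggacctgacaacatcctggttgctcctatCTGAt
Snord123: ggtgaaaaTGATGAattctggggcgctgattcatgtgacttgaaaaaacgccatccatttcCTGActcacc
Snord15a: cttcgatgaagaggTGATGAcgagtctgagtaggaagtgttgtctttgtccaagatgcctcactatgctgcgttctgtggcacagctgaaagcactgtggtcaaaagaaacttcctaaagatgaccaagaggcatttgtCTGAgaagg
Snord15b: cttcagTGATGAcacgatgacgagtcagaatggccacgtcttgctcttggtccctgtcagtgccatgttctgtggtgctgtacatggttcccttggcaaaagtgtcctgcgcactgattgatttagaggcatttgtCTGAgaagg

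Snora44 (chr4:132309941-132310069, forward strand) overlaps an annotated exon of Snhg12, and Snora7a (chr6:115807975-115808114, reverse strand) overlaps one of Rpl32. Both are shown because their counts differed most between 2 runs of columns of the deposited table, described at the end.
Snora44: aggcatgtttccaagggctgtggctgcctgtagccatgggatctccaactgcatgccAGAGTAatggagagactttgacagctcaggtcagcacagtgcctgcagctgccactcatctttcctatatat
Snora7a: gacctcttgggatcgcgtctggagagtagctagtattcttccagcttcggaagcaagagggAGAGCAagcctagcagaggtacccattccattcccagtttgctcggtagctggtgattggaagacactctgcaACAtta

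Of the 34 box C/D RNAs, 20 held the C box letters (58.8%) and 33 the D box letters (97.1%). None of the 24 box H/ACA RNAs held the C box letters, and 3 (12.5%) held those of the D box. The H box letters were found in 21 of 24 box H/ACA RNAs (87.5%) and the ACA in 22 (91.7%), against 16 of 34 (47.1%) and 3 of 34 (8.8%) box C/D RNAs. Among the 83 rows below the floor the same search found the C box in 50 of 65 box C/D rows (76.9%). A missing match says only that these letters were not in the window. The box C/D RNAs were 64 to 238 bases long (median 78.5) and the box H/ACA RNAs 121 to 205 (median 137).

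By the GENCODE M21 annotation, 40 of the 58 lay in an intron of a host gene on the same strand, 12 overlapped an exon of a host transcript and 6 had no host. Several shared a host. Snord32a, Snord34 and Snord35a lie in introns of Rpl13a, Snord49a, Snord49b and Snord65 in introns of 2410006H16Rik, and Snora73a and Snora73b belong to Snhg3. Such sets are not independent measurements of a condition.

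Libraries held 66540022 to 120554468 counts in all (median 93075927), of which the 58 RNAs made up 0.0187% to 0.0427%. Ephb4, the targeted gene, was at 3.903 to 23.0 CPM (counts scaled to a common library total with TMM factors) in Ephb4 CKO PBS, 2.34 to 33.0 in Ephb4 control PBS, 4.99 to 14.4 in Ephb4 CKO bleomycin and 13.5 to 65.5 in Ephb4 control bleomycin, so the ranges overlapped. The mean log2 CPM of 8 fibroblast markers (Col1a1, Col1a2, Col3a1, Pdgfra, Dcn, Lum, Thy1 and Pdgfrb) was 7.03 to 8.25 in Ephb4 control bleomycin, -0.18 to 7.35 in Ephb4 control PBS, 0.48 to 5.96 in Ephb4 CKO PBS and 0.38 to 6.05 in Ephb4 CKO bleomycin. The same mean of 8 macrophage markers was 4.74 to 8.22, 7.92 to 9.79, 8.51 to 9.89 and 8.31 to 9.69 in that order, so neither marker mean overlapped between the bleomycin groups. Lyz2, a lysozyme of myeloid cells, had 104291 to 3253729 counts. Over all libraries the mean of 5 epithelial markers (Epcam, Cdh1, Krt8, Krt18 and Sftpc) was 0.80 to 7.72. That of 4 endothelial markers (Pecam1, Cdh5, Kdr and Tie1) was 2.14 to 5.53. The labelled cell type was therefore not matched by the markers in every library. Values with the macrophage marker mean as a covariate are given beside the results they move. That covariate does not cover epithelial or endothelial content. In these bulk libraries, fewer cells of a type and less RNA per cell cannot be told apart. Sex-linked genes went against the recorded sex in 3 libraries, namely mice 1 and 2 of Ephb4 CKO bleomycin and mouse 2 of Ephb4 control bleomycin.

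A few long RNAs held nearly all small nucleolar RNA counts. Snora73a, Snord17, Snora73b and Snora74a, which are 196 to 238 bases long, held 91.3% of the counts of the 58. Per length, Snora73a was highest at 496 CPM per kb (mean of 17 libraries), followed by Snord17 at 341, Snora73b at 310 and Snora74a, the U19 RNA, at 186. The next was Snora23 at 26.9 CPM per kb, and Snora81 was the lowest at 0.341. The median was 248 CPM per kb for the 6 RNAs of 150 bases or more, 3.34 for the 27 of 100 to under 150 bases and 1.45 for the 25 under 100 bases. The 25 shortest held 1.502% of the counts, and all of them were box C/D RNAs. The class medians were close, at 2.0 CPM per kb for box C/D and 2.40 for box H/ACA. How well the library preparation and sequencing recovered RNAs of different length was not measured. The gradient with length therefore describes these libraries and may not be that of the cells.

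**Figure D1:**
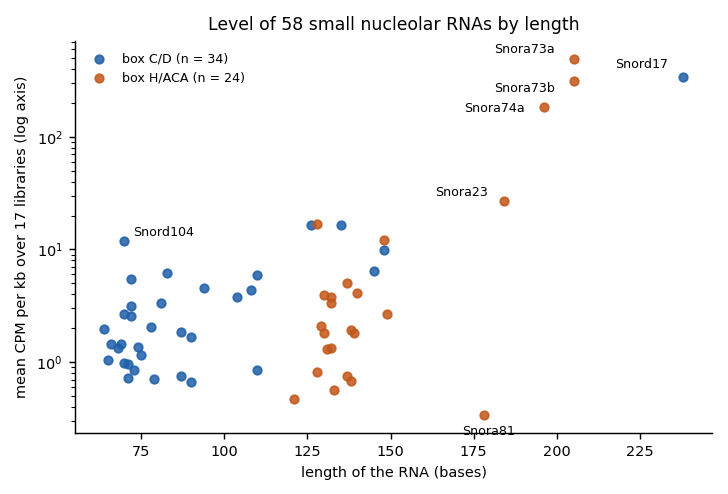
Mean level of each of the 58 RNAs over 17 libraries (CPM per kb, log axis) against its length in bases, with box C/D in blue and box H/ACA in orange. The 4 RNAs of 196 to 238 bases sit between 186 and 496 CPM per kb, and Snora81, 178 bases long, is lowest at 0.341.

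Of the small nucleolar RNAs with known roles in rRNA precursor cleavage, 5 of the 9 rows in the table were kept, namely Snord118, Snord13, Snord22, Snora73a and Snora73b, and the others had at most 1 count in any library. Of 4 rows from Rpl13a introns 3 were kept. Of 5 rows from Gas5 or Snhg1 introns and exons only Snord22 was kept, although both hosts carry many such RNAs. A row below the floor was low in these libraries, which does not give its level in the cells. The table given here held 0 rows of the imprinted cluster on chromosome 12. None of 19 rows of the imprinted cluster on chromosome 7 reached the floor, and their highest count was 2. Just inside the floor were Snord85, Snord88c and Snord93, with 10 counts in their second-highest library, and just outside were Snora15, Snora35, Snora36b and Snord91a with 9. With the floor at 50 counts in 2 libraries 25 RNAs remained, and with 10 counts in 9 libraries 40. Of the 58, 6 reached the floor in libraries of 1 genotype or 1 treatment only, namely Snord123, Snord85 and Snora81 in Ephb4 control, Snord55 after PBS, and Snord88c and Snord93 after bleomycin (Snord85 too).

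Snora74a was listed at 0 in Ephb4 CKO PBS mouse 1 and at 2289 to 5490 counts in the other 16 libraries. Its CPM in Ephb4 CKO PBS was 0, 43.0, 34.0, 24.6 and 29.8, so 1 library decided that group's mean of 26.3 ± 16.2 (SD, n = 5), which was 32.9 ± 7.78 (n = 4) without it. In that library Gm49347, a short gene model annotated as a miRNA that overlaps Snora74a on the same strand, held 913 counts, against 1 to 15 in the other 16. Matr3, which lies downstream, held 6662 counts there, within its range of 5973 to 19279 elsewhere. The 0 is therefore given as a listed value and not as absence of the RNA.

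The first comparison was bleomycin versus PBS in Ephb4 control mice, which addresses the response of the cells to injury. No small nucleolar RNA passed an adjusted p of 0.05 (edgeR's quasi-likelihood test over 22679 genes, Benjamini-Hochberg adjustment, smallest adjusted p 0.407), and none of the genes tested did (0% called). The median log2 fold change was -0.13 for box C/D and -0.10 for box H/ACA, beside -0.07 over all genes tested. Of the 58 RNAs, 23 had a positive and 35 a negative log2 fold change. At an unadjusted p under 0.05, 1 was higher (5.45% of all genes) and 3 were lower (6.05% of all genes). DESeq2 called 0 of the 58, with 11 adjusted p-values not given, beside 262 of 22351 genes (1.17%), and voom with quality weights called 0 beside 22 genes (0.097%). All Ephb4 control bleomycin mice had numbers of series 12, and all Ephb4 control PBS mice except mouse 1 of series 11. The labels do not say what the series stands for, and here it largely coincides with injury. With it as a covariate 697 genes were higher and 425 lower at an unadjusted p under 0.05, in place of 1237 and 1373.

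The 3 lower RNAs were Snord118, Snord17 and Snord13, of which Snord118 and Snord13 act in rRNA precursor maturation. Snord118 was at 2.12, 3.47, 3.07 and 5.01 CPM in Ephb4 control PBS and at 2.98, 1.43, 1.54 and 1.25 CPM in Ephb4 control bleomycin. Only mouse 1 of the bleomycin group lay within the PBS range. The log2 fold change was -0.92 (SE 0.35, unadjusted p = 0.0181, adjusted p = 0.407 from edgeR). Snord13 was at 0.208, 0.690, 0.460 and 0.727 CPM after PBS and at 0.408, 0.209, 0.265 and 0.188 after bleomycin, with a log2 fold change of -0.96 (SE 0.43, edgeR adjusted p = 0.425). The single higher one, Snord49b, was at 0.234, 0.153, 0.266 and 0.141 CPM after PBS and at 0.532, 0.337, 0.273 and 0.324 after bleomycin. Its groups did not overlap, on 14 to 26 against 31 to 64 counts, and the log2 fold change was 0.88 (SE 0.39, edgeR adjusted p = 0.417). Without the 3 libraries against their sex label none of the 58 had an unadjusted p under 0.05, beside 1065 genes higher and 1096 lower. With the macrophage marker mean as a covariate the log2 fold change was -0.36 (SE 0.43) for Snord17 and 0.44 (SE 0.42) for Snord49b, while those of Snord118 (-1.24) and Snord13 (-1.23) kept an unadjusted p under 0.05.

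The comparison of Ephb4 CKO with Ephb4 control after bleomycin addresses the effect of the deletion in injured lungs. Again no member was called by edgeR (smallest adjusted p 0.313), and 0% of genes were. Class medians were -0.14 for box C/D and -0.17 for box H/ACA on the log2 scale, beside -0.00051 over all genes, with 24 RNAs positive and 34 negative. At an unadjusted p under 0.05, 2 were higher (7.65% of all genes) and 3 lower (7.18% of all genes). With the macrophage marker score as a covariate the median over the 58 was 0.10 in place of -0.17. The Ephb4 CKO bleomycin mice were of both number series. With the series as a covariate 868 genes were higher and 1414 lower at an unadjusted p under 0.05, in place of 1736 and 1628. DESeq2 called 0 of the 58, with 26 adjusted p-values not given, beside 431 of 22351 genes (1.93%). By contrast, voom with quality weights called 5 (Snord17, Snord22, Snord42b, Snord89 and Snord123) among 4826 of 22679 genes (21.3%). Snord123 reached the count floor in Ephb4 control libraries only, so its call follows from how it was kept.

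Snord17 was the most abundant RNA among those with an unadjusted p under 0.05. It was at 40.5, 51.8, 69.3 and 43.8 CPM in Ephb4 control bleomycin and at 135, 114, 74.4 and 97.0 CPM in Ephb4 CKO bleomycin. These groups did not overlap. The log2 fold change was 1.03 (SE 0.36, unadjusted p = 0.0114, edgeR adjusted p = 0.313) and ranged from 0.89 to 1.21 with each library left out. It was 0.74 (SE 0.49, unadjusted p = 0.1524, edgeR adjusted p = 0.475) without the 3 libraries against their sex label, and 0.65 (SE 0.41, unadjusted p = 0.131, edgeR adjusted p = 1) with the macrophage marker mean as a covariate. Ephb4 control PBS lay across both ranges at 52.0, 127, 47.6 and 134 CPM, and Ephb4 CKO PBS was at 118, 50.1, 59.7, 89.0 and 75.2 CPM. The host gene Snx5, a sorting nexin of endosomes, was at 155 ± 40.5 CPM (SD, n = 4) in Ephb4 control bleomycin and 286 ± 63.1 CPM (n = 4) in Ephb4 CKO bleomycin, a log2 fold change of 0.88 (SE 0.29, edgeR adjusted p = 0.312).

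Snord89, in an intron of Gm15832, was at 0.291, 0.228, 0.326 and 0.314 CPM in Ephb4 control bleomycin and at 0.901, 1.16, 0.443 and 0.702 CPM in Ephb4 CKO bleomycin, without overlap. Its log2 fold change was 1.46 (SE 0.59, edgeR adjusted p = 0.314), and that of Gm15832 was 1.43 (SE 0.45, edgeR adjusted p = 0.312). For Snord89 the value was 0.88 (SE 0.79) without the 3 libraries and 1.16 (SE 0.73) with the covariate, so that neither Snord17 nor Snord89 had an unadjusted p under 0.05 in these fits. The 3 RNAs of 2410006H16Rik had log2 fold changes of -0.94 (Snord49a), -0.99 (Snord49b) and -0.85 (Snord65), beside -1.35 (SE 0.53, edgeR adjusted p = 0.314) for the host. Their counts over both bleomycin groups were 24 to 118, 10 to 64 and 9 to 56. With the macrophage covariate their log2 fold changes were -0.39 (SE 0.47), -0.48 (SE 0.44) and -0.13 (SE 0.51). Snord42b, in an exon of Rpl23a, had the remaining low unadjusted p, with a log2 fold change of -0.995 (SE 0.43, edgeR adjusted p = 0.321) on 25 counts or fewer per library. Snord42b was named after its values were seen, as were Snord123, Snora41, Snora44 and Snora7a.

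None of the RNAs of the Rpl13a introns had an unadjusted p under 0.05 in either comparison over all libraries, and differences among them were not tested. After bleomycin versus PBS in controls, Snord34 had a log2 fold change of 0.59 (SE 0.42), Snord35a 0.54 (SE 0.44) and Snord32a -0.26 (SE 0.35). In Ephb4 CKO versus control after bleomycin the values were -0.85 (SE 0.42), -0.64 (SE 0.44) and -0.09 (SE 0.35). Snord34 had 45, 24, 36 and 21 counts in Ephb4 control bleomycin and 22, 19, 14 and 4 in Ephb4 CKO bleomycin, and its CPM did not overlap between these groups. The unadjusted p was 0.0648 and the edgeR adjusted p 0.352, and without the 3 libraries against their sex label Snord34 had -1.41 (SE 0.61, unadjusted p = 0.038, edgeR adjusted p = 0.364).

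**Figure D2:**
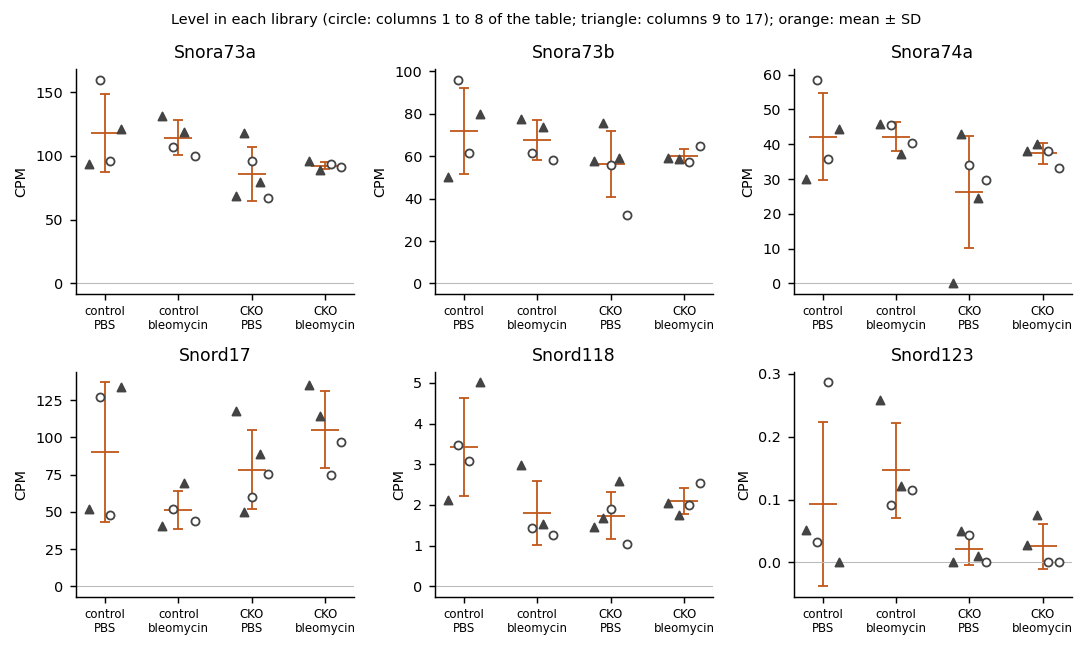
CPM of 6 RNAs in each of the 17 libraries by group, with the mean ± SD in orange, where circles stand for libraries in columns 1 to 8 of the deposited table and triangles for columns 9 to 17. Snord17 does not overlap between the bleomycin groups, and Snora74a is listed at 0 in 1 Ephb4 CKO PBS library.

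Without injury, Ephb4 CKO versus Ephb4 control, most small nucleolar RNAs had negative values. Of the 58, 51 had a negative log2 fold change (28 of 34 box C/D and 23 of 24 box H/ACA), as did 12370 of all 22679 genes. The median was -0.22 for box C/D and -0.44 for box H/ACA, beside -0.04 over all genes. None passed an adjusted p of 0.05 in edgeR (0% of all genes called), and DESeq2 (0.0582% of all genes) and voom (0%) called 0 as well. At an unadjusted p under 0.05, 6 were lower (0.913% of all genes) and 0 higher (1.56% of all genes). Without Ephb4 CKO PBS mouse 1 the count was 46 of 58 negative and 3 had an unadjusted p under 0.05, and 3 also had one without the libraries against their sex label. In the last fit 274 of all 22679 genes were higher and 147 lower at that p. The share over all genes without mouse 1 is not given here.

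The 6 were Snord118, Snora23, Snora43, Snora73a, Snora78 and Snord104. Snord118 was at 2.12 to 5.01 CPM in Ephb4 control PBS, as given above, and at 1.47, 1.67, 1.91, 2.60 and 1.05 CPM in Ephb4 CKO PBS. Only 1 CKO mouse, the fourth, lay above the lowest control. Its log2 fold change was -0.97 (SE 0.33, unadjusted p = 0.00934, edgeR adjusted p = 1). Snora73a was at 94.0, 160, 96.1 and 121 CPM in controls and at 68.7, 118, 96.3, 79.3 and 67.2 CPM in CKO cells, a log2 fold change of -0.46 (SE 0.19, unadjusted p = 0.0313, edgeR adjusted p = 1). Snora73b had -0.35 (SE 0.22, unadjusted p = 0.129). Snora23, in an intron of the importin gene Ipo7, was at 4.96, 6.97, 4.14 and 8.22 CPM in controls and at 3.65, 3.47, 3.52, 5.31 and 2.90 CPM in CKO cells, with overlap, and had a log2 fold change of -0.69 (SE 0.25, unadjusted p = 0.0147, edgeR adjusted p = 1). Snora43 did not overlap, at 0.212 to 0.339 against 0.114 to 0.198 CPM, on 9 to 31 counts.

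Levels were also summed per library. The 24 box H/ACA RNAs summed to 249 ± 65.3 CPM (SD, n = 4) in Ephb4 control PBS, 239 ± 27.2 (n = 4) in Ephb4 control bleomycin, 180 ± 48.3 (n = 5) in Ephb4 CKO PBS and 203 ± 3.59 (n = 4) in Ephb4 CKO bleomycin, so the ranges of the PBS groups (188 to 332 and 136 to 253 CPM) overlapped. Snora73a, Snora73b and Snora74a held 93.5% of this sum over all libraries. Ephb4 CKO PBS mouse 1, where Snora74a is listed at 0, was the lowest library, and the group was at 191 ± 47.7 CPM (n = 4) without it. Without Snora74a the sums were 207 ± 52.9 CPM in Ephb4 control PBS and 154 ± 37.5 CPM in Ephb4 CKO PBS. The 34 box C/D RNAs summed to 105 ± 50.5, 63.0 ± 11.99, 91.0 ± 27.1 and 118 ± 27.5 CPM in the same order, a sum of which Snord17 held 86.2%.

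Bleomycin versus PBS within Ephb4 CKO mice gave 41 of 58 positive log2 fold changes, with medians of 0.15 for box C/D and 0.22 for box H/ACA beside -0.03 over all genes. This comparison shares the Ephb4 CKO PBS libraries with the one before. No RNA was called by edgeR at an adjusted p of 0.05 (0% of all genes), nor by DESeq2 (0.0537%) or voom (0%). At an unadjusted p under 0.05, Snora43 was higher (0.798% of all genes) and 0 were lower (1.01% of all genes). Snora43 had 0.114, 0.198, 0.196, 0.129 and 0.117 CPM after PBS and 0.235, 0.282, 0.204 and 0.309 CPM after bleomycin, a log2 fold change of 0.77 (SE 0.35, unadjusted p = 0.0416, edgeR adjusted p = 1). Without the libraries against their sex label none of the 58 had an unadjusted p under 0.05 here, beside 50 genes higher and 112 lower.

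The interaction term tested whether the bleomycin difference itself differed between genotypes. No RNA was called (edgeR smallest adjusted p 0.987, 0% of all genes), and DESeq2 (0.0761% of all genes) and voom (0.00441%) called 0. At an unadjusted p under 0.05, 2 had a positive term (1.9% of all genes) and 0 a negative term (1.71% of all genes). They were Snord17 at 1.23 (SE 0.49, unadjusted p = 0.0237, edgeR adjusted p = 0.987) and Snord118 at 1.19 (SE 0.48, unadjusted p = 0.0248, edgeR adjusted p = 0.987), and neither had one under 0.05 without the libraries against their sex label. The median term was 0.07 for box C/D and 0.20 for box H/ACA, beside 0.0044 over all genes. It was positive for 21 of 24 box H/ACA RNAs and for 11417 of 22679 genes. The term contains the PBS libraries of Ephb4 CKO versus control, where 23 of 24 box H/ACA RNAs were negative, so the 2 counts are not independent.

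**Figure D3:**
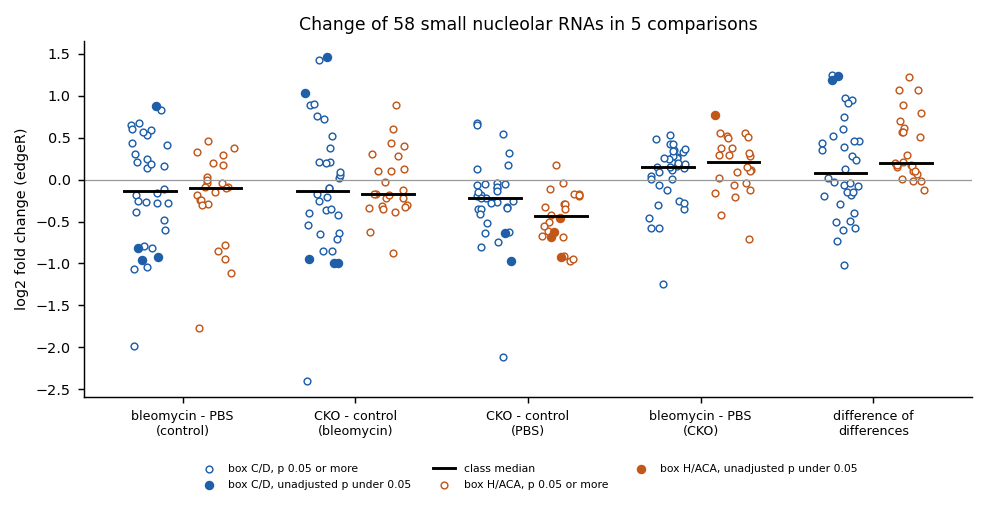
Log2 fold change of each of the 58 RNAs in the 4 group comparisons and in the difference of differences, with box C/D in blue, box H/ACA in orange, class medians as bars and unadjusted p under 0.05 as filled points. Medians lie between -0.44 and 0.22, and no point passed an adjusted p of 0.05.

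Snord123 reached the floor of 10 counts in 5 libraries, all of Ephb4 control mice, so a difference between genotypes follows from how it was kept and is given here as a description. Its counts were 4, 3, 28 and 0 in Ephb4 control PBS, 31, 10, 16 and 11 in Ephb4 control bleomycin, 0, 3, 4, 1 and 0 in Ephb4 CKO PBS and 3, 8, 0 and 0 in Ephb4 CKO bleomycin. The libraries with the most counts were thus the Ephb4 control bleomycin libraries and 1 Ephb4 control PBS library. Snhg18, its host, was at 18.8 ± 7.002 CPM (SD, n = 4) in Ephb4 control bleomycin, 2.76 ± 2.97 (n = 4) in Ephb4 CKO bleomycin, 6.31 ± 9.94 (n = 4) in Ephb4 control PBS and 1.96 ± 2.36 (n = 5) in Ephb4 CKO PBS. Ephb4 control PBS mouse 3, with 28 counts, also had the highest fibroblast marker mean of the PBS libraries (7.35 on the log2 CPM scale, against -0.18 to 2.82 in the other 3 of its group). Without that mouse the Ephb4 control PBS mean of Snord123 was 0.0283 ± 0.0263 CPM (n = 3) in place of 0.0928 ± 0.131 (n = 4). The part of the fibroblast share in this difference was not tested.

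Levels of the small nucleolar RNAs and of their host genes were set side by side over the same libraries, with no test, since both come from the same RNA. Among the 40 in host introns, the sign of the log2 fold change matched that of the host for 23 in bleomycin versus PBS in controls, and for 29 in Ephb4 CKO versus control after bleomycin. For Ephb4 CKO versus control after PBS, 32 of the 40 matched. There 35 of the 40 were negative and their hosts had a median of -0.23, so many signs would match whichever host was paired. In Ephb4 CKO versus control after bleomycin 25 of the 40 were negative and their hosts had a median of -0.43, so the same limit holds for the 29. The 40 RNAs had 35 hosts, so the pairs are not independent. Of the 12 exon RNAs, 3, 6 and 8 matched in the same order of comparisons. In controls given bleomycin the intron RNAs had a median of -0.10 and their hosts 0.27, and the 12 exon RNAs had -0.54 and their hosts 0.48. For Ephb4 CKO versus control after bleomycin the intron RNAs had -0.18 and hosts -0.43, and the exon RNAs had 0.19 and hosts -0.48. No host passed an adjusted p of 0.05. Within Rps3, at log2 fold change 0.16 (SE 0.18) in bleomycin versus PBS in controls, the intron RNA Snord15a had -0.39 (SE 0.36) and the exon RNA Snord15b -1.99 (SE 1.01). The Snord15b value was -1.12 (SE 1.01) without Ephb4 control PBS mouse 4, at 2.40 CPM, and the mean of that group was then 0.557 ± 0.342 CPM (n = 3) in place of 1.02 ± 0.964 (n = 4).

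**Figure D4:**
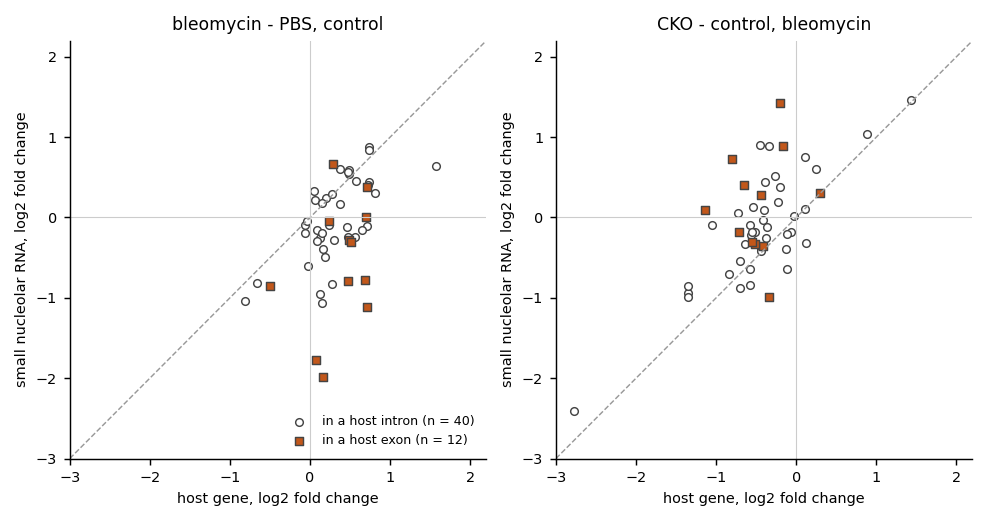
Log2 fold change of each small nucleolar RNA against that of its host gene, for bleomycin versus PBS in controls (left) and Ephb4 CKO versus control after bleomycin (right), with 40 intron RNAs as open circles, 12 exon RNAs as filled squares and the line of equal change dashed. On the right, Snord17 and Snord89 (upper right) and Snord123 (lower left) lie near the line, and Snord123 was kept through Ephb4 control libraries only. Other RNAs lie further off, with RNA minus host values from -0.53 to 1.36 for intron RNAs and -0.66 to 1.63 for exon RNAs. The sign matched that of the host for 29 of the 40 intron RNAs and 6 of the 12 exon RNAs.

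The proteins that act with these RNAs were taken as a list of 20 genes. In bleomycin versus PBS in controls all 4 box C/D core proteins (the methyltransferase Fbl, and Nop56, Nop58 and Snu13) had positive log2 fold changes (0.14 to 0.52), and in Ephb4 CKO versus control after bleomycin all 4 were negative (-0.84 to -0.11). These comparisons share the Ephb4 control bleomycin libraries. No gene of the list passed an adjusted p of 0.05 in any comparison. Nop56 had the lowest unadjusted p of the core proteins after bleomycin, with a log2 fold change of -0.62 (SE 0.26, edgeR adjusted p = 0.318). Of the 4 box H/ACA core proteins (the pseudouridine synthase Dkc1, and Nhp2, Nop10 and Gar1), 2 were positive and 2 negative in both comparisons. Among 12 assembly factors, Shq1, a chaperone of Dkc1, had -0.86 (SE 0.28, edgeR adjusted p = 0.407) in the first comparison and 0.76 (SE 0.28, edgeR adjusted p = 0.314) in the second. In the second, 9 of the 12 were negative, among them Ruvbl1, an ATPase of the assembly machinery, at -0.48 (SE 0.19, unadjusted p = 0.0241, edgeR adjusted p = 0.314).

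The columns of the deposited table form 2 runs in alphabetical order, columns 1 to 8 and columns 9 to 17. Their sizes of 8 and 9 equal those of the sets in which the libraries were sequenced according to the labels, and each group is divided over both, but the labels do not name the set of a library. The difference between the runs of columns, with 1 mean per group in the fit, was computed after the data were seen. Of the 58 RNAs, 48 were higher in columns 9 to 17, with medians of 0.23 for box C/D and 0.34 for box H/ACA beside -0.04 over all genes. edgeR called 0 of the 58 (smallest adjusted p 0.0778) and 45 of all genes (0.198% called). At an unadjusted p under 0.05, 12 were higher (5.49% of all genes) and 0 lower (6.76% of all genes). DESeq2 called 4 (Snora41, Snora44, Snora7a and Snord15b) beside 1058 of 22109 genes (4.79%), and voom with quality weights 2 (Snora41 and Snora44) beside 459 of 22679 (2.02%). Without the libraries against their sex label, 8 of the 58 were higher at an unadjusted p under 0.05. The share over all genes in that fit is not given, so this count is not read as a result about these RNAs.

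RNAs that overlap a host exon had the largest median difference between the runs. Their median was 1.0 on the log2 scale (n = 12) beside 0.23 for the other 46. At an unadjusted p under 0.05, 7 of 12 against 5 of 46 were higher (5.49% of all genes) and 0 lower (6.76% of all genes). This split lies within a comparison computed after the data were seen. The 12 include Snora9, Snora26, Snora81, Snord42b and Snord66, with median counts of 5 to 7. Snora44 had a lowest, median and highest level of 0.0327, 0.0922 and 0.274 CPM in columns 1 to 8 and 0.150, 0.348 and 0.806 CPM in columns 9 to 17. The log2 fold change was 1.92 (SE 0.44, edgeR adjusted p = 0.0778), while that of Snhg12 was 0.05 (SE 0.14). For Snora7a these levels were 0.0648, 0.172 and 0.427 against 0.324, 0.519 and 2.38 CPM, with 1.94 (SE 0.48, edgeR adjusted p = 0.0958) beside 0.02 (SE 0.13) for Rpl32. Snord15b had 0.130, 0.225 and 0.941 against 0.191, 1.04 and 5.39 CPM, with 1.78 (SE 0.62, edgeR adjusted p = 0.248) beside 0.05 (SE 0.12) for Rps3. The ranges of the runs overlapped for each of these 3. Snora41, in an intron of Eef1b2, had 0.250, 0.387 and 0.542 against 0.441, 0.574 and 0.798 CPM, and a log2 fold change of 0.67 (SE 0.19, edgeR adjusted p = 0.144).

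**Figure D5:**
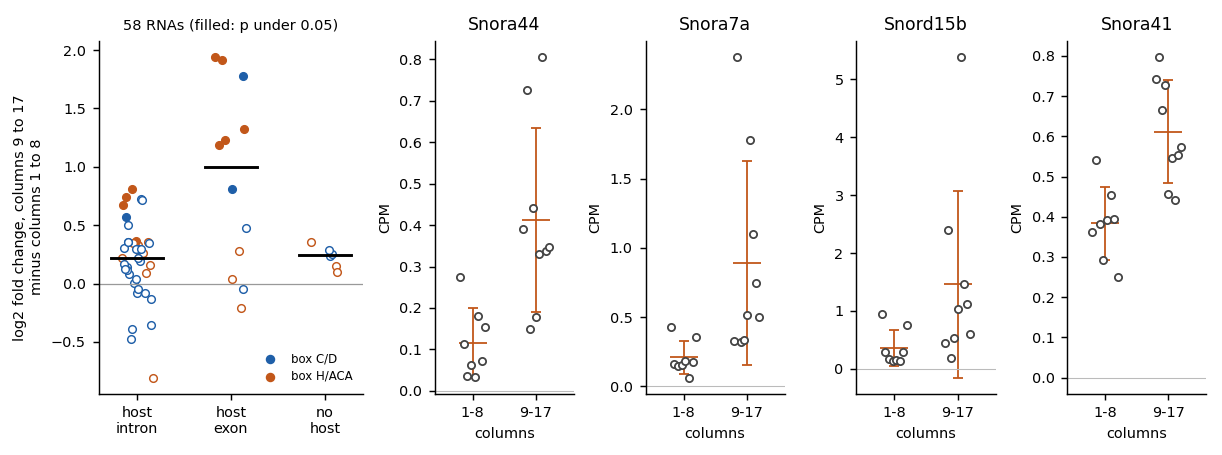
Left, log2 fold change of the 58 RNAs between columns 9 to 17 and columns 1 to 8 of the table by place in the host gene, with box C/D in blue, box H/ACA in orange, medians as bars and unadjusted p under 0.05 filled. Right, CPM of 4 RNAs in each library with the mean ± SD in orange; Snora44 is higher on average in columns 9 to 17 (0.412 against 0.116 CPM).

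With the run of columns as a covariate, edgeR called 0 of the 58 in each of the 5 comparisons. The median of the 58 in Ephb4 CKO versus control after PBS was then -0.36, with 52 negative. In the bleomycin comparison of controls 7 RNAs were lower at an unadjusted p under 0.05 in place of 3. The share of all genes at that p in this fit is not given, so the 7 carry no result about these RNAs.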

How the data were processed

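Total RNA of 17 lung fibroblast cultures was measured as RNA-seq. Per the submitters' processing notes, reads were trimmed with cutadapt (1.18) and aligned to GRCm38 with HISAT2 (2.1.0). The authors took gene counts from StringTie, whose script turns the coverage of each transcript into a whole number, and the deposited counts are not normalized. Reads shared by a small nucleolar RNA and an exon of its host, or by near-identical copies, can thus be divided between rows. Depth was 66540022 to 120554468 counts per library.

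From these counts, genes with 10 or more counts in at least 2 libraries (22679 of 55421) were fitted in edgeR 4.0.16 (R 4.3.3) with TMM factors and 1 mean per group over all 17 libraries, and tested with the quasi-likelihood test and Benjamini-Hochberg adjustment. The floor is that of the members in place of the study's CPM above 10, which keeps 10481 genes. The study's batch number was not used, since the labels do not give it for each library. CPM are TMM-scaled, and log2 CPM has a prior count of 2. Standard errors are the fold change over the square root of the F statistic. The script was tested on simulated data. Alternatives were DESeq2 1.42.0, limma 3.58.1 voom with quality weights, RLE factors, other floors, covariates, and each library left out. Sequences, hosts and lengths came from GENCODE M21. Each library is 1 mouse, and replicate numbers follow deposition order.

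The members, gene lists and tests were chosen with earlier results of these data known. The RNAs named were the 5 with the highest mean CPM per kb in each class, the 2 with the smallest unadjusted p per comparison and direction, and the kept members of the rRNA processing, Rpl13a, Gas5 or Snhg1, chromosome 7 and chromosome 12 sets. Others were named after their values were seen, or because they lie next to the count floor.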

Additional observations from a re-analysis of the deposited data

Results flagged for a closer look

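In 7 of 88 tests of a group of 4 or 5 libraries (22 RNAs in 4 groups), the highest or lowest library stood apart from the others by Dixon's criterion, and chance flags about 1 in 20 groups. In Ephb4 control bleomycin mouse 1, Snord118 was at 2.98 CPM (others 1.25 to 1.54) and Snord49a at 0.981 CPM (others 0.429 to 0.510). In Ephb4 control bleomycin mouse 3, Snord15b was at 0.531 CPM (others 0.136 to 0.191). In Ephb4 CKO PBS mouse 2, Snora78, in an intron of Snhg9, was at 2.78 CPM (others 1.22 to 1.64) and Snord15b at 5.39 CPM (others 0.130 to 1.46). In Ephb4 CKO bleomycin mouse 3, Snora78 was low at 1.68 CPM (others 1.99 to 2.01) and Snord13 high at 0.443 CPM (others 0.250 to 0.281). Without Ephb4 CKO PBS mouse 2 the mean of Snord15b in its group was 0.696 ± 0.663 CPM (SD, n = 4) in place of 1.63 ± 2.18 (n = 5).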

How the results depend on the processing

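No paired analysis was possible because the labels give no replicate numbers that pair mice across groups. edgeR called 0 of the 58 RNAs in the 5 comparisons with RLE factors, other floors, covariates, either run of columns, or any library left out. With each library left out, the class medians ranged from -0.19 to -0.02 (box C/D) and -0.21 to 0.04 (box H/ACA) for bleomycin versus PBS in controls, from -0.23 to 0.03 and -0.23 to -0.05 for Ephb4 CKO versus control after bleomycin, and from -0.36 to -0.19 and -0.55 to -0.28 after PBS. With the CPM floor of 10 only Snord17 remained of box C/D, so its median was -0.85 in controls, 1.04 for Ephb4 CKO versus control after bleomycin, 0.42 in Ephb4 CKO and 1.26 for the interaction. The box C/D median was 0.17 in controls over columns 9 to 17 only, and 0.12 after bleomycin with the macrophage score as covariate; the cause was not tested. voom called 5 box C/D RNAs after bleomycin (21.3% of all genes), among them Snord123, which was kept through Ephb4 control libraries only. Between the runs of columns DESeq2 called 1 box C/D and 3 box H/ACA RNAs (4.79% of all genes) and voom 2 box H/ACA RNAs (2.02%), against 0 by edgeR. A floor of 50 counts left 25 RNAs. Reversed values were Snord55 in Ephb4 CKO versus control after PBS (-0.068, columns 9 to 17 only) and, in Ephb4 CKO bleomycin versus PBS, Snord13 (0.23, columns 1 to 8 only) and Snord15b (1.88, columns 1 to 8 only; 0.065, voom). The median library held under 10 counts of 18 of the 58 RNAs and under 100 counts of 48, which limits the precision of their values.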
